A study of Mus musculus with 6 samples.

Results

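The GADD45 stress sensors and the p38 kinase cascade were followed in liver RNA of mice with diet-induced nonalcoholic steatohepatitis (NASH), through 8 genes found by symbol among the 24346 gene rows of the expression table. These are Gadd45a, Gadd45b and Gadd45g, the MAP kinase kinase kinases Map3k4 and Map3k5, the MAP kinase kinases Map2k3 and Map2k6, and the p38α gene Mapk14. They were picked because Gadd45g had the lowest and Map2k6 the highest difference among MAPK genes in the comparison described here, so the differences of these genes between the groups are given as descriptions, with no test. The levels were FPKM values, which scale fragments to transcript length and to the mapped fragments of the library. All 8 genes passed the filter on low values (0.5 FPKM or more on average), which left 11493 genes tested.

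Both groups were male C57BL/6J mice in the methods (C57BL/6 in the labels), 8 weeks old when feeding with CDAHFD began, a high-fat diet without choline whose protein is replaced by amino acids. They ate it for 6 weeks, then received 1 intravenous dose of an adeno-associated virus of serotype 8, were returned to normal chow and were analysed 2 weeks later. The virus of the 3 control livers encoded mCherry, a lipid droplet-targeting signal (LDTS) and an LC3-interacting region that had been mutated (LIR mut), and that of the 3 lipophagy livers carried an engineered region that binds LC3 in its place (eLIR). The thyroxine-binding globulin promoter drove both proteins in hepatocytes, while the RNA came from whole liver. Both groups therefore carried virus and the droplet-targeting signal, and no liver without virus or diet was compared. The labels name separate mice and no batch, so p-values measure the spread between these mice only.

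GADD45 proteins are small acidic proteins whose genes are switched on by DNA damage, cytokines, growth arrest and metabolic stress. They bind the autoinhibited kinase MAP3K4 (MEKK4) and open it, and MAP3K4 then phosphorylates the kinases MKK3 and MKK6 (Map2k3 and Map2k6), which activate p38α by phosphorylating its threonine-glycine-tyrosine motif. MAP3K5 (ASK1) feeds the same step from oxidative stress, and is held inactive by reduced thioredoxin. In the liver p38α restrains hepatocyte proliferation and takes part in inflammatory and fasting responses. The activity of these kinases is set by phosphorylation, which transcript levels do not measure.

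The promoters of the GADD45 genes are shown to set the 3 paralogues side by side, since Gadd45g had non-overlapping groups and Gadd45b was alike in both. The sequences are from RefSeq on GRCm38.p6, the build of the submitters' alignment (mm10), and run 5′ to 3′ on the strand of the gene up to the first base that RefSeq or GENCODE transcribes. Capitals mark, on either strand, the octamer ATTTGCAT and the CCAAT box. They also mark the TATA box, spelled TATAAA. The E-box is marked where its letters CACGTG occur. The Gadd45a bases lie at chr6:67037458-67037657 (minus strand), those of Gadd45b at chr10:80929841-80930072 and those of Gadd45g at chr13:51846425-51846674 (both plus strand).
Gadd45a: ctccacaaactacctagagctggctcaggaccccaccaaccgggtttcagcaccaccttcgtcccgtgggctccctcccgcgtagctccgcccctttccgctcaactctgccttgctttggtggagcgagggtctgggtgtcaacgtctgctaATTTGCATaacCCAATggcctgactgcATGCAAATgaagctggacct
Gadd45b: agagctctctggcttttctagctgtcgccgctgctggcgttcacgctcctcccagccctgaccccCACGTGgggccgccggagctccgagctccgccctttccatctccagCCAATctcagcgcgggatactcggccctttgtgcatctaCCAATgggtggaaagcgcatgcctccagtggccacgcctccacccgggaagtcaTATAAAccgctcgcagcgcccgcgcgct
Gadd45g: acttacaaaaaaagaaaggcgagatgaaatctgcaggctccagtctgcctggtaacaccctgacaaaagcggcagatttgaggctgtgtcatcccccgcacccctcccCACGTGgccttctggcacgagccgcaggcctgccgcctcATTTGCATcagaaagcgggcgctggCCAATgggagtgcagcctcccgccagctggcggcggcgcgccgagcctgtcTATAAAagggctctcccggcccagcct

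Within 250 bases before the RefSeq start, Gadd45a held octamers at 97 to 90 and at 70 to 63 bases before the start, on opposite strands, and Gadd45g held 1 at 103 to 96 bases before it. Gadd45b held none. An octamer stood in 1.62% of 32536 distinct windows of the same length before RefSeq starts. Gadd45b and Gadd45g each held an E-box (185 to 180 and 142 to 137 bases before the start) and a TATA box (46 to 41 and 27 to 22 bases before it), which stood in 6.04% and 12.3% of all windows. Gadd45a held neither. All 3 held a CCAAT box, as did 33.8% of windows. Of 5 other motifs searched on both strands, the AP-1 motif TGANTCA, the cAMP response element TGACGTCA, the STAT motif TTCNNNGAA, the EGR motif GCGTGGGCG and the FOXO motif TGTTTAC, none stood in the 3 GADD45 windows. Among the 8 windows of the other members, the first of 3 Map2k6 starts held an AP-1 motif (TGATTCA, 232 to 226 bases before the start) and the second of 2 Mapk14 starts a STAT motif (TTCCCGGAA, 232 to 224 bases before it). AP-1 and STAT motifs stood in 6.73% and 7.04% of all windows, CRE in 1.56%, EGR in 0.541% and FOXO in 3.17%. The motifs were chosen after these sequences were read, and a match in letters is not a bound site.

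Among the GADD45 sensors, Gadd45g was lower in every lipophagy liver than in every control liver, Gadd45a was lower on average with overlapping groups, and Gadd45b was alike in both groups. Gadd45g (chr13:51846678-51848468) is the cytokine-inducible member of the family. Its level was 41.3, 11.9 and 35.6 FPKM in control livers 1, 2 and 3 and 7.12, 4.41 and 6.59 FPKM in lipophagy livers 1, 2 and 3. Control liver 2 lay closer to the lipophagy livers than to the other control livers, and the groups did not overlap. The mean was 29.6 ± 15.5 FPKM in the control group and 6.04 ± 1.44 FPKM in the lipophagy group (SD, n = 3 each), a 4.90-fold ratio. On the log2(FPKM + 1) scale the difference was -1.97 (standard error 0.41), and it lay between -2.50 without control liver 2 and -1.65 without control liver 1. Within the control livers alone the highest level was 3.45 times the lowest.

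Gadd45a (chr6:67035096-67037457), the p53- and stress-inducible member, was at 3.21, 6.86 and 8.68 FPKM in the control livers and 2.47, 2.89 and 3.66 FPKM in the lipophagy livers. Control liver 1 lay within the range of the lipophagy livers, so the groups overlapped. The means were 6.25 ± 2.78 FPKM and 3.01 ± 0.603 FPKM (SD, n = 3 each), and the log2 difference of -0.78 (standard error 0.28) became -1.13 without control liver 1 and -0.53 without control liver 3. Control liver 1 thus held the lowest Gadd45a and the highest Gadd45g of its group.

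Gadd45b (chr10:80930073-80932204), which is induced by NF-κB and by nuclear receptors in liver, was at 3.02, 3.89 and 3.38 FPKM in the controls and 3.02, 3.57 and 3.33 FPKM with lipophagy. The lipophagy range lay within the control range, with means of 3.43 ± 0.434 and 3.31 ± 0.274 FPKM (SD, n = 3 each). The log2 difference was -0.04 (standard error 0.098).

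Summed over the 3 genes, GADD45 transcripts were at 47.5, 22.7 and 47.7 FPKM in the controls and 12.6, 10.9 and 13.6 FPKM with lipophagy. Gadd45g made up 86.9%, 52.7% and 74.7% of this sum in the control livers and 56.5%, 40.6% and 48.5% in the lipophagy livers, where its share overlapped with that of control liver 2. The share of Gadd45b was 10.2% ± 6.01 in the controls and 27.1% ± 4.97 with lipophagy (SD, n = 3 each), while its own level was alike. Of the 3 genes Gadd45g had the largest difference in FPKM, as the plot of GADD45 transcripts by liver shows.

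**Figure D1:**
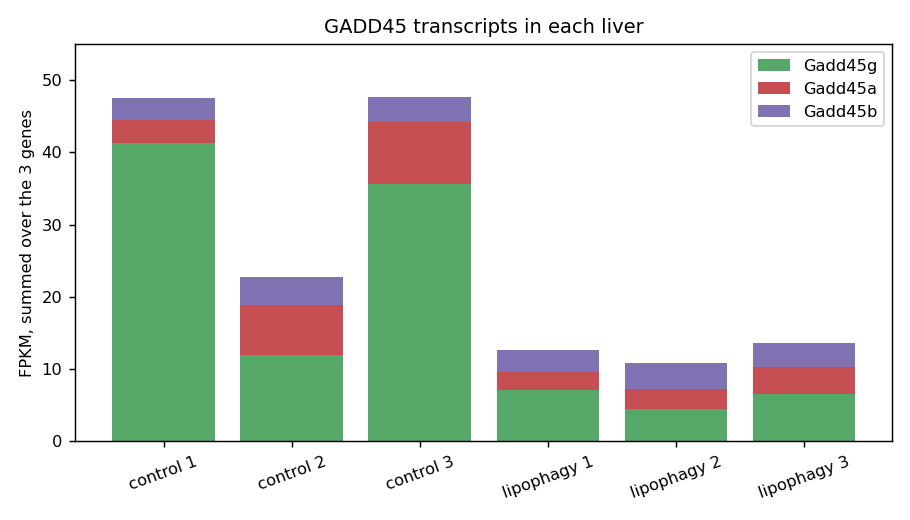
Stacked bars give the FPKM of Gadd45g, Gadd45a and Gadd45b in each of the 6 livers. The sum lies between 22.7 and 47.7 FPKM in the controls and between 10.9 and 13.6 FPKM with lipophagy, and the Gadd45g part differs most.

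The MAP3K genes, which take up the signal of GADD45 proteins and of oxidative stress, had overlapping groups. Map3k4 (chr17:12227621-12318796), whose product GADD45 proteins bind, was at 2.83, 2.51 and 2.14 FPKM in the controls and 2.17, 2.26 and 2.29 FPKM with lipophagy. All 3 lipophagy livers fell within the control range, and the log2 difference was -0.10 (standard error 0.092).

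Map3k5 (chr10:19934472-20142753), the ASK1 gene, was at 4.48, 4.41 and 4.998 FPKM in the controls and 3.46, 4.52 and 7.16 FPKM with lipophagy. Its lipophagy livers lay on both sides of the control livers, with the highest value of all 6 in lipophagy liver 3 and the lowest in lipophagy liver 1. The log2 difference of 0.06 (standard error 0.20) turned to -0.18 without lipophagy liver 3.

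The MAP2K genes differed from each other in level and in spread. Map2k6 (chr11:110399122-110525522), the MKK6 gene, was at 0.782, 1.69 and 1.997 FPKM in the controls and 2.58, 2.08 and 4.18 FPKM with lipophagy. Control liver 1 was the lowest and lipophagy liver 3 the highest, and between control liver 3 and lipophagy liver 2, the neighbours at the boundary of the groups, the gap was small. The means were 1.49 ± 0.633 FPKM and 2.94 ± 1.10 FPKM (SD, n = 3 each), a ratio of 1.98. The log2 difference was 0.66 (standard error 0.24), and it was 0.44 without control liver 1 and 0.45 without lipophagy liver 3. At this low level a pseudocount of 0.1 in place of 1 gave 0.97. The lowest level corresponded to an estimated 40 fragments, with a counting error of 15.7%.

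Map2k3 (chr11:60932033-60952811), the MKK3 gene, was at 23.1, 22.9 and 23.4 FPKM in the controls and 25.0, 23.7 and 26.6 FPKM with lipophagy. The groups did not overlap, and the means were 23.1 ± 0.258 and 25.1 ± 1.45 FPKM (SD, n = 3 each). The log2 difference of 0.11 (standard error 0.075) was -0.0017 with quantile normalization. Map2k6 made up 3.28%, 6.88% and 7.86% of the summed FPKM of both MAP2K genes in the controls and 9.34%, 8.05% and 13.6% in lipophagy livers, so that Map2k3 supplied most of the MAP2K transcripts in each liver.

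Mapk14 (chr17:28691329-28748406), which encodes p38α, was at 15.5, 15.8 and 17.3 FPKM in the controls and 16.2, 16.7 and 17.3 FPKM with lipophagy. The groups overlapped, and the log2 difference of 0.04 (standard error 0.077) turned to -0.033 with quantile normalization. Mapk14 supplied between 85.4% and 88.7% of the summed FPKM of the 4 p38 genes in every liver. Of the other p38 genes, Mapk12 (p38γ, a muscle-rich isoform) was at 1.67 ± 0.106 and 1.78 ± 0.0385 FPKM (SD, n = 3 each), while Mapk11 and Mapk13 lay below the filter.

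**Figure D2:**
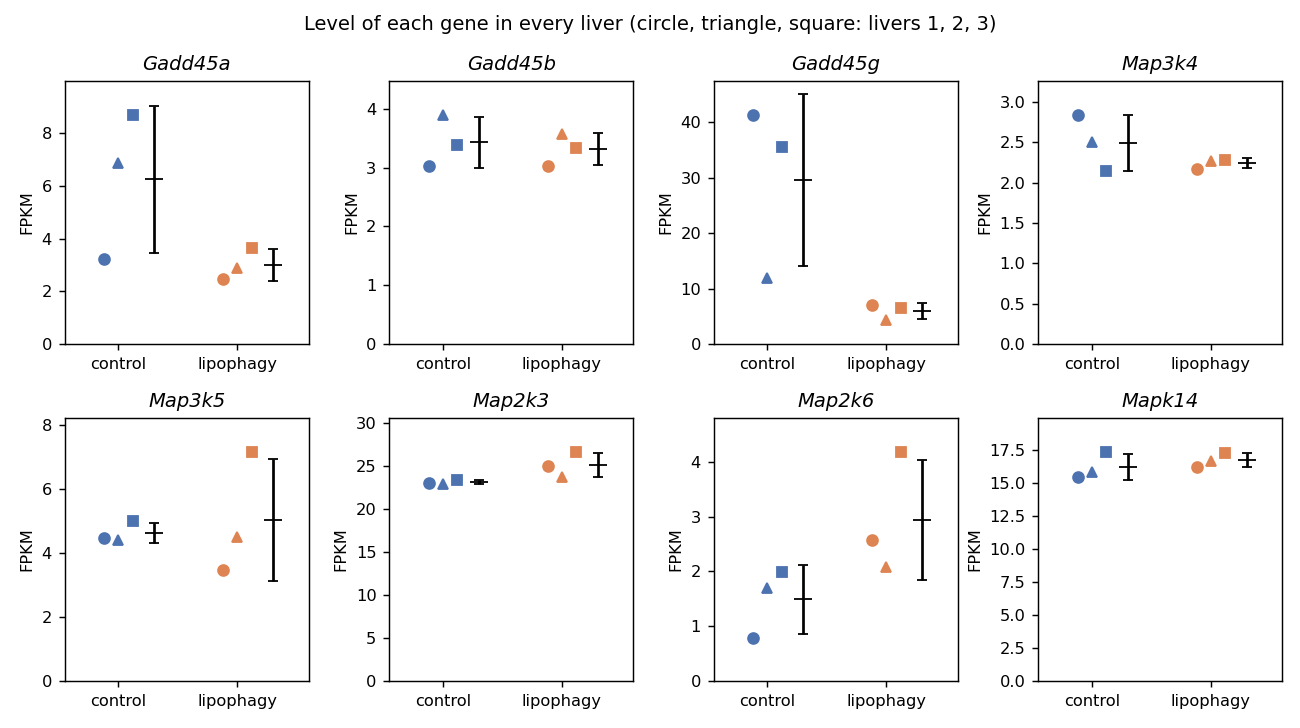
Each panel plots the FPKM of 1 gene from 0 upwards in the 3 control livers (blue) and the 3 lipophagy livers (orange), with circles, triangles and squares for livers 1, 2 and 3 and the mean ± SD in black. Gadd45g, Map2k3 and Map2k6 have groups that do not overlap, and control liver 1 stands low for Gadd45a and Map2k6 while lipophagy liver 3 stands high for Map3k5 and Map2k6.

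In all, 3 of the 8 genes had groups that did not overlap, Gadd45g with lower and Map2k3 and Map2k6 with higher lipophagy livers. Among all 11493 genes tested 26.2% did not overlap, 10.8% with lower and 15.4% with higher lipophagy livers. Since the genes were picked on this comparison, nothing is read from that count. Of the 8 genes, 4 had a lower and 4 a higher mean in lipophagy livers, and the median log2 difference was 0.0022 against 0.020 over all genes tested. Gadd45g stood at percentile 0.06, Gadd45a at 0.37 and Map2k6 at 99.2 of all log2 differences, and the other 5 genes between 24.8 and 69.3. Quantile normalization also turned the sign of Gadd45b (to 0.0087). The plot of changes gives all 8 values.

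**Figure D3:**
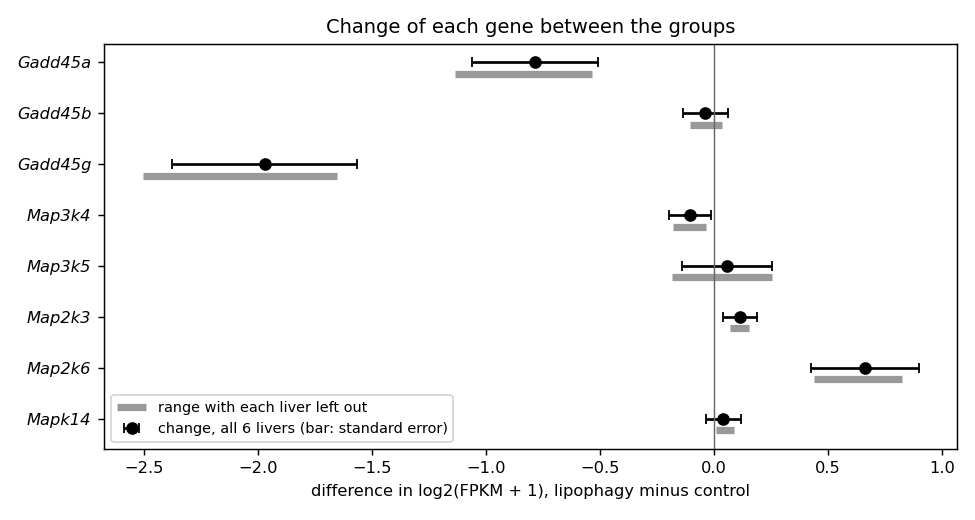
Points give the difference in log2(FPKM + 1), lipophagy minus control, for each gene with its standard error, and grey bars the range when each liver in turn is left out. Gadd45g (-1.97), Gadd45a (-0.78) and Map2k6 (0.66) lie furthest from 0. The ranges of Gadd45b and Map3k5 span 0, and those of all other genes do not. Where the groups do not overlap, as for Gadd45g, Map2k3 and Map2k6, leaving out a liver cannot change the sign.

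The genes also differed in the spread between livers of the same group. Picking genes for extreme differences between groups of 3 favours a large spread, so the values are a description and are not independent of the choice. The SD within groups on the log2 scale was 0.69 for Gadd45g, 0.47 for Gadd45a, 0.39 for Map2k6 and 0.32 for Map3k5. Set beside the 500 tested genes nearest in level, whose median SD was between 0.11 and 0.13, these stood at percentiles 100.0, 99.0, 98.4 and 96.2. Map3k4 (0.10), Mapk14 (0.065) and Map2k3 (0.058) stood at percentiles 35.8, 15.8 and 11.6, and Gadd45b (0.12) at the middle. For 3 of these genes the SD is given next without the liver whose removal lowered it most. The 500 genes beside each lost that same liver, whatever their own spread, so a fall in percentile is partly built in. The SD was 0.27 (percentile 93.2) for Gadd45g without control liver 2, 0.21 (percentile 86.8) for Gadd45a without control liver 1 and 0.14 (percentile 73.2) for Map3k5 without lipophagy liver 3. For Map2k6 the percentile stayed between 95.8 and 99.0 with any 1 liver left out. The SD of Map3k4 was 0.057 without control liver 3 (percentile 8.4) and that of Mapk14 0.038 (percentile 4.4), and Map2k3 was at 0.038 without lipophagy liver 2 and 0.032 without lipophagy liver 3. Leaving out livers was chosen here after these spreads were seen. With 3 livers per group an SD is itself imprecise, and at their lowest levels Gadd45a (63 estimated fragments) and Gadd45g (93) had counting errors of 12.6% and 10.4%.

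Over the 6 livers the order of means was Map2k3 (24.1 FPKM), Gadd45g (17.8), Mapk14 (16.5), Map3k5 (4.84), Gadd45a (4.63), Gadd45b (3.37), Map3k4 (2.37) and Map2k6 (2.22). Mapk14 was above Map3k5, and Gadd45b above Map3k4, in 6 of 6 livers with no overlap in either group. The place of Gadd45g depended on the group. It was above Mapk14 in 2 of 3 control livers and in 0 of 3 lipophagy livers, and Map2k3 was above Gadd45g in 1 of 3 control livers and 3 of 3 lipophagy livers. The ranges of Map3k5 and Gadd45a, and of Gadd45a and Gadd45b, overlapped in both groups. Map3k4 lay above Map2k6 in 3 of 3 control livers and in 1 of 3 lipophagy livers.

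The other genes of the pathway were taken from 8 lists with 99 genes, of which 89 passed the filter. Of these 0 had an adjusted p below 0.05 (limma with Benjamini-Hochberg adjustment over all 11493 genes), against 3 genes or 0.0261% of all genes tested, each of the 3 lower. At an unadjusted p below 0.05, 5 were higher and 10 lower, which is 16.9% of the 89 against 19.5% of all genes (11.5% higher and 7.97% lower). With quantile normalization the direction of all such genes turned from 1327 higher and 916 lower to 745 higher and 899 lower, and that of the pathway genes to 2 higher and 14 lower (18% of the 89 against 14.3% of all genes). The pathway share lay above that of all genes in 8 of the 16 alternatives and below it in the other 8, so no difference from all genes is read from it. The share without overlap between groups was 28.1% (11 genes higher and 14 lower), near that of all genes, and the median log2 difference was -0.022. The median kept its sign under all 16 alternatives for the p38 phosphatases and the GADD45 partners, and turned in 1 to 6 of them for the other 6 lists.

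The regulators of GADD45 transcription held the lowest adjusted p of these lists. Of 19 genes tested, 9 had a higher and 10 a lower mean, against 7 and 12 with quantile normalization. Myc, which encodes a transcription factor that represses Gadd45a and drives growth, was at 11.6, 6.14 and 15.1 FPKM in the controls and 1.63, 2.11 and 1.20 FPKM with lipophagy. Each lipophagy liver was below each control, with a log2 difference of -2.11 (standard error 0.27, adjusted p = 0.071, limma). The adjusted p was 0.00703 without control liver 2 (log2 difference -2.45). Foxo1, a transcription factor of fasting, had the largest positive difference (0.24, standard error 0.15, adjusted p = 0.399, limma), with overlapping groups.

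Of the partners of GADD45 proteins, Cdkn1a, the p21 inhibitor of cell cycle kinases, was at 16.3 ± 2.32 FPKM in the controls and 9.79 ± 1.64 FPKM with lipophagy (SD, n = 3 each), with groups that did not overlap and an adjusted p of 0.124 (limma). Tdg, the thymine-DNA glycosylase of active demethylation, was at 0.334 ± 0.166 and 0.944 ± 0.221 FPKM (SD, n = 3 each), also without overlap (adjusted p = 0.134, limma). It passed the filter of 0.5 FPKM only through the lipophagy livers. Of 7 partners tested, 3 had a higher and 4 a lower mean, among the latter Tet2, which passed the filter only through the control livers. With a filter of 1 FPKM the split was 2 and 3.

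Upstream of the MAP2K genes, 6 of 17 other MAP3K and TAB genes had a higher and 11 a lower mean. The split was 9 and 8 with quantile normalization and also without lipophagy liver 1, and 4 and 13 without lipophagy liver 3. Map3k1 (MEKK1) had the lowest difference of -0.39 (standard error 0.080, adjusted p = 0.124, limma) and no overlap, and Map3k10 (MLK2) the highest of 0.12 (standard error 0.10). Among 12 ASK1 regulators 7 had a higher and 5 a lower mean, which turned to 3 and 9 with quantile normalization. Txnip, the inhibitor of thioredoxin, was at 17.3 ± 1.99 FPKM in the controls and 22.8 ± 2.52 FPKM with lipophagy, and Dab2ip, a scaffold that promotes ASK1 signalling, at 1.72 ± 0.0506 and 1.16 ± 0.0534 FPKM (SD, n = 3 each). Neither pair of groups overlapped, and the adjusted p was 0.171 and 0.134 (limma).

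Downstream, 8 of 15 p38 substrates had a higher and 7 a lower mean, against 7 and 8 without control liver 2, without control liver 3 or without lipophagy liver 1. Ddit3, the CHOP gene of the unfolded protein response, had the highest log2 difference (0.40, standard error 0.24) and Hspb1, a small heat shock protein gene, the lowest (-0.38, standard error 0.34), both with overlapping groups. Of 8 p38 phosphatases, 2 had a higher and 6 a lower mean. Of the 6, Dusp8 and Ptpn7 passed the filter only through the control livers, and with a filter of 1 FPKM the split was 2 and 4. It was 1 and 7 without lipophagy liver 3 and 3 and 5 without lipophagy liver 2. Dusp10, a MAP kinase phosphatase selective for p38 and JNK, was at 2.58 ± 0.320 FPKM in controls and 1.74 ± 0.251 FPKM with lipophagy (SD, n = 3 each), without overlap (adjusted p = 0.151, limma). Dusp1 was at 9.24, 6.56 and 8.13 FPKM in the controls and 6.90, 5.81 and 29.6 FPKM with lipophagy, so that its positive difference of 0.41 (standard error 0.50) came with 1 high liver. In the ERK and JNK arms 5 of 10 genes had a higher mean, from Map2k2 (0.24, standard error 0.13) to Mapk7 (-0.21, standard error 0.093), and this count lay between 3 (liver weights) and 7 (without lipophagy liver 2) over the alternatives.

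**Figure D4:**
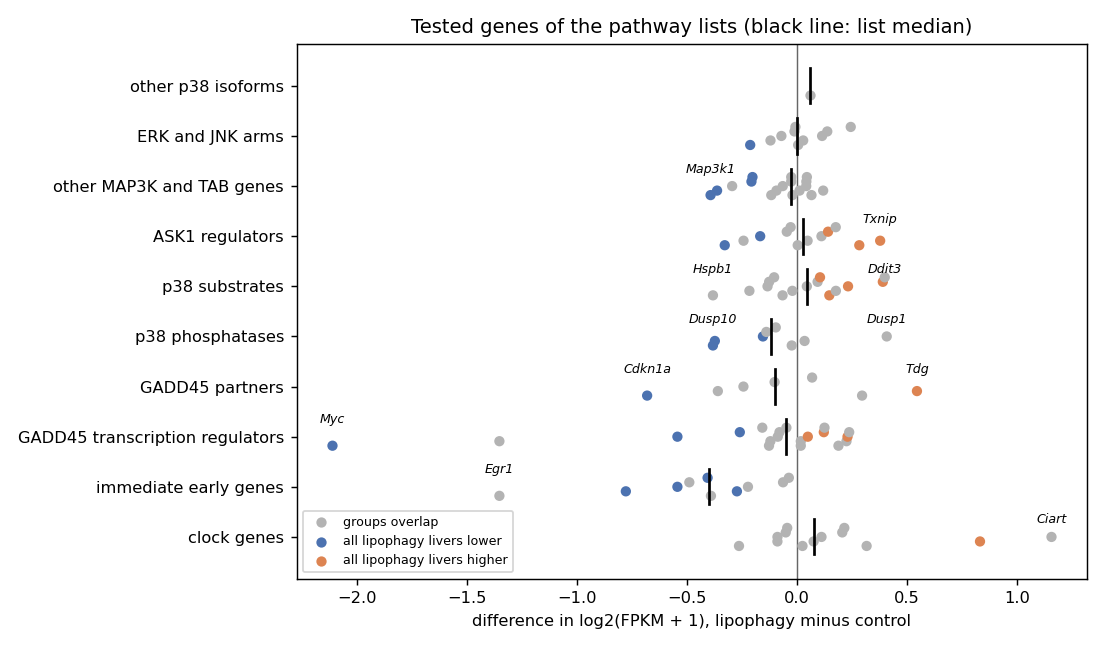
Each point is the difference in log2(FPKM + 1), lipophagy minus control, of 1 tested gene, by list, with blue and orange for genes whose lipophagy livers are all lower or all higher and a black line at the list median. Medians of the 8 pathway lists lie between -0.12 and 0.059, that of the immediate early genes at -0.40, and Myc (-2.11) and Ciart (1.16) are the outermost genes.

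Other lists held genes whose means differed between the groups or whose levels stood apart in single livers. The part of these genes in the values above was not tested. Growth and stress signals induce immediate early genes without new protein. Their list was chosen with earlier results of these data known and does not hold all genes induced in this way. Of its 10 genes tested, all 10 had a lower mean in lipophagy livers (median log2 difference -0.40). An unadjusted p below 0.05 was found for 6 of them (7.97% of all genes tested were lower at that level), and an adjusted p below 0.05 for 0 (limma). That count of 6 was 3 without control liver 2, when 8 of 10 means were lower, and 3 without lipophagy liver 1. With quantile normalization 9 of the 10 means were lower. Egr1, which is also among the regulators of GADD45 transcription, was at 4.58, 29.6 and 12.3 FPKM in controls and 1.76, 10.1 and 3.42 FPKM with lipophagy (log2 difference -1.35, standard error 0.65), and Klf2 had the difference nearest to 0 (-0.04). Lipophagy liver 3, which was highest for Map2k6, Map3k5 and Dusp1, was also apart in clock genes. Ciart was at 35.5 FPKM there and between 2.46 and 4.76 FPKM in the other 5 livers, Per1 at 8.71 FPKM against 1.76 to 3.28 FPKM, and Arntl, the lowest in difference (-0.26), at 0.327 FPKM against 0.583 to 1.29 FPKM. Of 13 clock genes tested, 8 had a higher mean in lipophagy livers, 2 of them with an unadjusted p below 0.05 (11.5% of all genes tested were higher at that level), and 0 had an adjusted p below 0.05 (limma). That count of 2 was 0 without control liver 2, 1 when lipophagy liver 3 or either of control livers 1 and 3 was left out, and 3 without lipophagy liver 1. Without lipophagy liver 3, without control liver 2 and with quantile normalization, 6 of 13 had a higher mean, and 10 of 13 without lipophagy liver 1.

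The tissue carried the defining transcripts of liver, with Alb between 35470 and 64089 FPKM. The summed FPKM of 8 hepatocyte markers ranged from 74395 to 81140 in the controls and from 89087 to 111607 with lipophagy, and 6 of 8 were higher on average (4 without overlap, against 15.4% of all genes tested). With quantile normalization 3 of these 8 were higher. The FPKM of all genes summed to 622696 to 681138 in the controls and to 709993 to 782392 with lipophagy, and as a share of that sum the markers overlapped between the groups (11.3% to 12.4% and 12.1% to 14.3%). For 10 Kupffer cell and macrophage markers the sum was 539 to 722 and 538 to 665 FPKM, for 6 sinusoidal endothelium markers 21.3 to 27.2 and 25.6 to 41.5 FPKM, and for 6 stellate cell markers 125 to 145 and 105 to 141 FPKM. Lyz2 made up most of the macrophage sum and Dcn most of the stellate sum. Without overlap, 1 macrophage marker was higher and 2 lower, and 0 stellate markers were higher and 2 lower (15.4% and 10.8% of all genes tested). The sum of 4 bile duct markers was 5.81 to 12.0 and 4.35 to 9.72 FPKM, of 6 lymphocyte markers 2.45 to 3.03 and 1.92 to 2.28 FPKM, of 3 neutrophil markers 17.5 to 30.3 and 15.2 to 18.0 FPKM and of 4 proliferation markers 8.09 to 15.5 and 7.09 to 12.4 FPKM. On average 3 of 9 tested macrophage, 5 of 6 endothelial, 1 of 6 stellate and 0 of 4 bile duct, 0 of 1 lymphocyte, 0 of 2 neutrophil and 0 of 4 proliferation markers were higher with lipophagy. Without control liver 3 the endothelial count was 3 of 6 and the macrophage count 2 of 9, without control liver 1 the stellate count was 2 of 6, and without lipophagy liver 1 the bile duct count was 1 of 4 (also with quantile normalization) and the macrophage count 2 of 9. None of the markers in the table was at 0 in all livers. In whole liver, fewer cells of a type and less RNA per cell cannot be told apart. Depth was estimated from the steps of low FPKM values at 22.8 to 33.8 M fragments (M, mega) per liver.

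The genes whose pattern was most like that of Gadd45g over the 6 livers, by Pearson's r of log2(FPKM + 1), were Sfpq (0.994), Chac1 (0.992), Mfsd7c (0.989), Rnf152 (0.987) and Wwtr1 (0.987). Chac1, which encodes a glutathione-degrading enzyme, was at 3.84, 2.74 and 3.75 FPKM in controls and 2.15, 1.83 and 2.29 FPKM with lipophagy. It shared the dip of control liver 2. For Map2k6 they were Rbm4 (0.996), A230072C01Rik (0.993), Pfkfb1 (0.993), Mfsd11 (0.991) and Itgb1bp1 (0.982). Pfkfb1, which encodes the liver enzyme that sets fructose-2,6-bisphosphate, was at 9.78, 14.1 and 15.4 FPKM in controls and 18.0, 15.4 and 28.1 FPKM with lipophagy, and like Map2k6 it was lowest in control liver 1 and highest in lipophagy liver 3. They were taken as the highest over all other genes tested, the points share the 2 groups, and no test was made. By Spearman's rho, 27 genes for Gadd45g and 31 for Map2k6 shared the highest value of 1.0, among them 1 and 4 of the genes named.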

How the data were processed

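RNA of 3 control and 3 lipophagy livers was sequenced from stranded poly(A) libraries in 100 bp paired-end mode. The authors deposited FPKM values per gene symbol and liver. The submitters' processing notes name TopHat2 2.0.13, Bowtie2 2.2.3, SAMtools 0.1.19, Cufflinks 2.2.1 and the build mm10, and the annotation is not given in the sources used here. FPKM is scaled to transcript length and to mapped fragments, so no count model was used. Groups and replicate numbers came from the sample labels. Each mouse gave 1 column, and 27 gene names that had turned into dates were kept as they stood.

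log2(FPKM + 1) (11493 genes, mean 0.5 FPKM or more) was fitted with limma 3.58.1 (R 4.3.3, intensity trend, no covariate, two-sided) and adjusted by the Benjamini-Hochberg method, with a threshold of 0.05. Such differences understate the change of low genes. The procedure was tested on simulated data. Depth came from low FPKM values, which rise in steps of 1 fragment, with GENCODE M21 lengths of genes with 1 transcript less 150 bases. Fragment numbers of a gene use its longest transcript and cover counting error only. Positions of genes are from GENCODE on GRCm38, and promoters matched all 8 symbols in RefSeq. Tables and plots were made in Python 3.11.15 with matplotlib 3.10.9.

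The genes and all lists (pathway, immediate early, clock and cell type markers) were chosen with earlier results of these data known. Named were the 8 members, the largest rise and fall of each list that is not a marker list, and the 5 genes most like Gadd45g and Map2k6. Other genes named (Per1, Alb, Dusp8, Ptpn7, Tet2, Dcn, Lyz2) were chosen after their values were seen. Map3k20 and Tf were found under the synonyms Zak and Trf, and 1 marker (Ly6g) had no match. Alternatives were other pseudocounts, filters, normalizations, variance models, liver weights, the replicate number as a block and each liver left out.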

Additional observations from a re-analysis of the deposited data

How the results depend on the processing

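Of 128 values of the 8 genes under 16 alternatives, 126 moved by less than the SD within groups. The others were Map2k3 and Mapk14 with quantile normalization (-0.0017 and -0.033). Much of this count was fixed in advance. The filters, the intensity trend and the replicate block leave these values as they are. Leaving out 1 of 3 livers in a group cannot move a value by as much as that SD. The count is therefore no measure of stability. The sign differed from the reported one in 6 of the 128, which fell on Gadd45b, Map3k5, Map2k3 and Mapk14. Gadd45g lay between -2.50 and -1.65, Gadd45a between -1.13 and -0.53, and Map2k6 between 0.41 (quality weight for each liver) and 0.97 (pseudocount 0.1). The cause was not tested. Leaving out 1 liver gave Gadd45b -0.10 to 0.036, Map3k4 -0.18 to -0.034, Map3k5 -0.18 to 0.26, Map2k3 0.073 to 0.15, Mapk14 0.011 to 0.088 and Map2k6 0.44 to 0.82. The count of genes with an adjusted p below 0.05 was 3, and 1 with no filter on low values, 39 with liver weights and 2 to 11 with 1 liver left out (7 when control liver 2 was dropped, 5 for lipophagy liver 2, 11 for lipophagy liver 3). The 3 genes were all lower, but calls went both ways with liver weights (15 higher, 24 lower), the replicate block (17 and 26) and without control liver 2 (1 and 6), lipophagy liver 1 (1 and 1), lipophagy liver 2 (3 and 2) or lipophagy liver 3 (4 and 7). Among immediate early genes 1 was called without lipophagy liver 3, 1 with liver weights and 2 with the replicate block. Of the pathway genes 0 to 1 were called with 1 liver left out, Myc without control liver 2. With the replicate number as a block 43 genes were called and 2 of the pathway genes, Egr1 and Myc. In this balanced fit the log2 differences of the 8 genes cannot change. The standard error went from 0.41 to 0.20 for Gadd45g, from 0.28 to 0.16 for Gadd45a and from 0.24 to 0.15 for Map2k6. It was also lower for Gadd45b and Map3k5, and higher for Map3k4, Map2k3 and Mapk14. The labels do not give the numbers 1 to 3 as pairs of mice. Same-numbered livers had correlations of their deviations of 0.25, 0.234 and -0.0565, and control liver 3 correlated best with lipophagy liver 2 (0.251). With 3 livers per group these correlations cannot decide whether the numbers pair the mice. By Spearman's rho, 5 of the 10 genes named as most like Gadd45g and Map2k6 had the highest value. The estimated depth limits Map2k6 and the GADD45 genes most, with as few as 40 and 63 fragments in a liver.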
